A study of Mus musculus with 30 samples.

Results

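Transcript levels of 9 chemokine genes, Cxcl9, Cxcl10, Ccl8, Ccl2, Ccl7, Ccl11, Cxcl12, Cxcl14 and Cx3cl1, were followed in the tibialis anterior, a fast muscle of the lower leg, of male C57BL/6J mice. The genes were listed by name, and all 9 had a row among the 47643 gene rows of the table, of which 23193 were above 0 in at least 1 library. RNA of 30 muscles was sequenced in 4 experiments: mice of 24 months (old, n = 3) and 6 months (young, n = 3), dexamethasone-treated mice and their controls (n = 4 each), mice with LLC cancer and their controls (n = 4 each), and muscles given Cyr61 siRNAs or NT siRNAs (n = 4 each). LLC commonly stands for Lewis lung carcinoma, a tumour line of the mouse, dexamethasone is a synthetic glucocorticoid, and Cyr61 encodes a secreted matrix-associated protein. The dose and duration of dexamethasone, the tumour load, the way the siRNAs were delivered and, for the last 3 experiments, the age of the mice were not given in the labels. The libraries hold whole muscle, so that for every result fewer cells of a type and less RNA per cell cannot be told apart.

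Chemokines are small secreted proteins that bind receptors on leukocytes and direct their movement along a gradient. Cxcl9 and Cxcl10 are induced by interferons and bind Cxcr3 on activated T cells and NK cells. Ccl2 and Ccl7 draw monocytes through Ccr2, mouse Ccl8 binds Ccr8, and Ccl11, eotaxin-1, draws eosinophils through Ccr3. Cxcl12 is produced steadily by stromal cells and binds Cxcr4 and Ackr3, Cxcl14 is another chemokine made by resting tissues, and Cx3cl1 is made as a membrane-bound protein whose receptor, Cx3cr1, is carried by monocytes and macrophages. In muscle these signals are known for the entry of monocytes, T cells and eosinophils after injury, and glucocorticoids are known to restrain many inflammatory genes.

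Of the 9 genes, 4 lie in 1 cluster of CC chemokines on the plus strand of chromosome 11 (mm10, genes from GENCODE M21). Ccl2 (chr11:82035571-82037453) was followed by Ccl7 (chr11:82045712-82047525), Ccl11 (chr11:82057823-82062955) and Ccl8 (chr11:82115185-82116799), and the 4 genes together span 81.2 kb. Cxcl9 (chr5:92321347-92328079) and Cxcl10 (chr5:92346638-92348889) lie 18.6 kb apart on the minus strand of chromosome 5. Cxcl12 (chr6:117168535-117181367), Cxcl14 (chr13:56288643-56296551) and Cx3cl1 (chr8:94772009-94782427) each lie on a chromosome that holds no other of the 9 genes. Ccl12 (chr11:82101845-82103400), a chemokine gene that is not among the 9, lies between Ccl11 and Ccl8. The gene Gm17268 overlaps Ccl2 on the opposite strand and was listed at 0 in all 30 libraries.

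The start regions of Cxcl9, Cxcl10 and Ccl8 are shown because the first and the last of these had the largest differences after dexamethasone, whereas Cxcl10, the neighbour of Cxcl9, was not called. Each runs from 250 bases before to 50 bases after the start of the gene in RefSeq (GRCm38.p6), 5' to 3' on the gene's strand. Capitals mark matches, on either strand, to a GAS element (TTCNNNGAA), an ISRE core (GAAANNGAA), a glucocorticoid response element core (ACANNNTGT) or an NF-kB element. The regions are chr5:92328030-92328329 (minus strand), chr5:92348840-92349139 (minus strand) and chr11:82114935-82115234 (plus strand).
Cxcl9: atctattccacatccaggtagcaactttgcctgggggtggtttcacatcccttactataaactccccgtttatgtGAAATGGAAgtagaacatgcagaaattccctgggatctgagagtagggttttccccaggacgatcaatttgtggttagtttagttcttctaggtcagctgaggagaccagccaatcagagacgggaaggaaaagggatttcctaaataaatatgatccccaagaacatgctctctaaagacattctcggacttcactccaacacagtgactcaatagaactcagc
Cxcl10: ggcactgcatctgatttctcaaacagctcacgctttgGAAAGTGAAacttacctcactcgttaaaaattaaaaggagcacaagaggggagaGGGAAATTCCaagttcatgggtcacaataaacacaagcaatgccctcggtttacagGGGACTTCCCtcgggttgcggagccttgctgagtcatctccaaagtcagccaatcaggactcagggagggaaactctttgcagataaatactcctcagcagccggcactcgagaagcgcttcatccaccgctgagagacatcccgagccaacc
Ccl8: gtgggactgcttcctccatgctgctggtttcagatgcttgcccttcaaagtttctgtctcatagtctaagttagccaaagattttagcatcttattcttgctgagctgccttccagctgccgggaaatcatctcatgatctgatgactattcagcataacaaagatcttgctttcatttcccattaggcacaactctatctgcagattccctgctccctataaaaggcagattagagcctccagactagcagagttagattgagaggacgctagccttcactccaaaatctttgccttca

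Cxcl9 held 1 ISRE core, which began 175 bases before the start. Cxcl10 held 1 ISRE core at 213 bases and 2 NF-kB elements at 159 and 103 bases before the start. No letters of the 4 motifs were found in this window of Ccl8. A promoter was in the table for 6 of the 9 genes: of the other 3, Cxcl14 held 1 GAS element and 1 ISRE core, and Cxcl12 and Cx3cl1 held none of the 4 motifs. Among 32851 promoters of this length, 8.3% held a GAS element, 8.56% an ISRE core, 6.85% a glucocorticoid response element core and 4.51% an NF-kB element. The matches describe the sequence only, and whether they act in this muscle was not tested.

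Levels are given in TPM, the authors' unit, in which reads are divided by gene length and the transcripts of each library sum to 1000000. Read numbers could be recovered from the steps of the table for 15792 of 22175 genes (71.2%), and these genes held between 10600000 and 24400000 reads per library. A count of 3 reads in a gene of 2 kb corresponds to 0.0512 to 0.0995 TPM, and intervals from read numbers cover counting error only. The labels call the libraries biological replicates, and no 2 libraries held the same values. Markers of fast fibres summed to between 88755 and 157983 TPM in every library, so transcripts of fast fibres were present throughout. These markers do not identify the tibialis anterior among fast muscles. Fkbp5, a gene induced by glucocorticoids, averaged 18.4 ± 7.77 TPM after dexamethasone and 6.06 ± 0.517 TPM in its control (SD, n = 4 each; limma, adjusted p = 0.00457), and the other 8 glucocorticoid-induced genes listed were not called. Fkbp5 was also at 26.3 ± 12.9 TPM with LLC, against 6.94 ± 1.29 TPM in its control (limma, adjusted p = 0.0799), and at 28.9 ± 12.1 TPM with Cyr61 siRNAs and 29.4 ± 12.6 TPM with NT siRNAs, so its level does not set dexamethasone libraries apart from those of other experiments. Cyr61, the target of the siRNAs, averaged 39.2 ± 12.3 TPM with Cyr61 siRNAs and 56.6 ± 13.9 TPM with NT siRNAs. These groups overlapped, at 25.5 to 52.8 TPM and 36.8 to 67.8 TPM, and Cyr61 was not called (log2 change -0.53, 95% interval -1.10 to 0.03, limma, adjusted p = 0.999).

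Cxcl14, Cxcl12 and Ccl11 made up most of the chemokine transcripts in this muscle. As a mean over the 30 libraries, Cxcl14 held 36.4% of the summed TPM of the 9 genes, Cxcl12 22.7%, Ccl11 19.8% and Ccl8 11.2%, and none of the others more than 2.31%. The share of Ccl8 varied most, between 0.224% and 38.2% of the sum, and that of Cxcl14 lay between 18.7% and 47.2%. The sum of the 9 genes was 135 ± 27.9 TPM after dexamethasone and 175 ± 46.4 TPM in its control, and it lay between 56.2 and 93.3 TPM as a mean in each of the other 6 groups. Levels of different experiments were set side by side only as a description, since experiment and group cannot be told apart there.

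**Figure D1:**
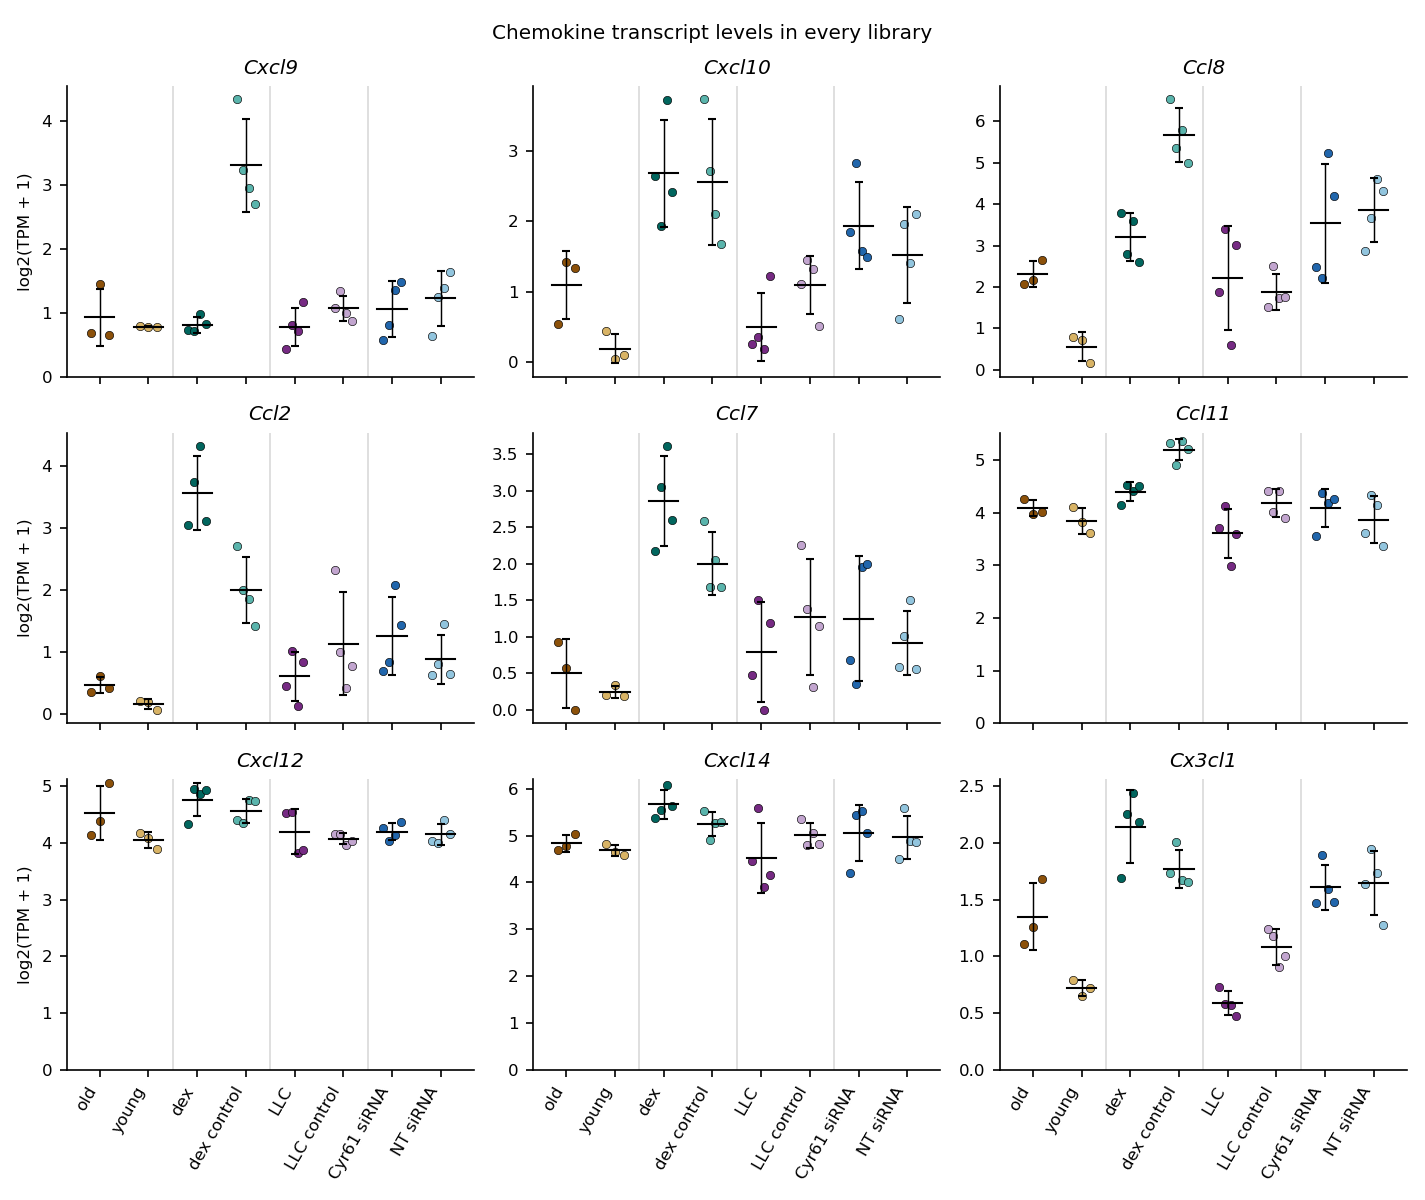
Level of each chemokine gene, as log2(TPM + 1), in every library of the 8 groups; points are libraries, horizontal bars group means and vertical bars 1 SD, and grey lines separate the 4 experiments. The 4 dexamethasone control libraries stand above all others for Cxcl9 and Ccl11, the 4 dexamethasone libraries stand above all others for Ccl2, and Cxcl12 moves little between groups.

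The order of the group means differed between the genes. Cxcl9 was highest in the dexamethasone control (10.02 ± 6.39 TPM), whose lowest library (5.49 TPM) was above every library of the next group, NT siRNAs (1.41 ± 0.657 TPM). The remaining 6 groups followed from 1.15 TPM with Cyr61 siRNAs down to 0.721 ± 0.00824 TPM in young mice (n = 3), and no neighbours in that order were apart. Ccl11 was also highest in the dexamethasone control (35.97 ± 4.92 TPM) and apart from the next group, dexamethasone (20.2 ± 2.47 TPM). Below these, its means lay between 17.4 TPM in the LLC control and 11.7 TPM with LLC, with no neighbours apart.

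Ccl8 spanned the widest range of means, 54.2 ± 26.7 TPM in the dexamethasone control against 0.495 ± 0.336 TPM in young mice (SD, n = 4 and n = 3). In its order, young mice alone were apart from their neighbour, the LLC control (2.81 ± 1.27 TPM). Ccl2 was highest after dexamethasone (11.6 ± 5.47 TPM) and lowest in young mice (0.119 ± 0.0612 TPM), and both of these groups were apart from their neighbours, the dexamethasone control (3.23 ± 1.66 TPM) and old mice (0.393 ± 0.13 TPM). Ccl7 had the same first and last group, 6.75 ± 3.35 TPM after dexamethasone and 0.19 ± 0.0695 TPM in young mice, with no neighbours apart. Ccl7 had no read in the libraries old 3 and LLC 3, where a count of 0 allows a level of up to 3 reads, or 0.248 and 0.141 TPM.

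Cxcl10 ranged from 6.14 ± 4.15 TPM after dexamethasone down to 0.152 ± 0.174 TPM in young mice, with no neighbours apart. Cxcl12 had the narrowest order, with means between 26.6 TPM after dexamethasone and 15.6 TPM in young mice. Cxcl14 lay between 50.5 TPM after dexamethasone and 24.7 TPM in both young mice and LLC mice. Cx3cl1 was highest after dexamethasone (3.49 ± 0.919 TPM) and lowest with LLC (0.508 ± 0.114 TPM). For Cx3cl1 the LLC control (1.13 ± 0.226 TPM) was apart from young mice (0.648 ± 0.0815 TPM), which came next in the order.

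After dexamethasone the chemokines differed from their control in both directions. Cxcl9, Ccl8 and Ccl11 were lower, Ccl2 was higher, and Ccl7 passed the test as higher by a narrow margin, whereas Cxcl10, Cxcl12, Cxcl14 and Cx3cl1 did not pass it. For Cxcl9, Ccl8 and Ccl11 the control of this experiment had the highest mean of the 8 groups, and the reason was not tested. All 9 genes were tested, each on log2(TPM + 1) with limma across 11944 genes, with Benjamini-Hochberg adjustment, and a gene counted as called where its adjusted p was under 0.05. The background was uneven: calls were made for 35.9% of the genes as higher and for 1.51% as lower, with a median log2 change over all genes of 0.33. After median-of-ratios scaling, which removes that shift (median 0.02), the shares were 4.44% higher and 4.71% lower. The share of TPM in mitochondrially encoded genes was 37.9% ± 3.17 after dexamethasone and 48.7% ± 2.09 in the control, and changes are therefore also given relative to the median gene.

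Cxcl9, the interferon-induced ligand of Cxcr3, had 0.654, 0.641, 0.964 and 0.762 TPM in the 4 dexamethasone libraries, against 19.4, 8.43, 6.74 and 5.49 TPM in the 4 controls. The highest dexamethasone library was far below the lowest control, and control 1 was the highest of all. Its log2 change was -2.50 (SE 0.30, 95% interval -3.16 to -1.84, limma, adjusted p = 0.00101), 5.66-fold lower on the log2(TPM + 1) scale, and -2.83 relative to the median gene. These levels rest on 36 to 76 reads per dexamethasone library and 404 to 1590 reads per control library. Cxcl9 passed the filter on low values through the controls alone; without a filter its adjusted p by limma was 0.00444.

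Cxcl10, which lies next to Cxcl9 and binds the same receptor, had 5.23, 2.81, 12.2 and 4.34 TPM in the dexamethasone libraries, against 12.3, 5.52, 3.31 and 2.19 TPM in the controls. The groups overlapped over nearly their whole range. Its log2 change was 0.12 (95% interval -0.89 to 1.13, limma, adjusted p = 0.823), and it was -0.18 after median-of-ratios scaling (adjusted p = 0.874). The interval does not reach the change of Cxcl9. Within each library, the ratio of Cxcl10 to Cxcl9 in TPM was 7.996, 4.38, 12.6 and 5.70 after dexamethasone, against 0.631, 0.655, 0.491 and 0.399 in the controls. The 2 sets of ratios were apart, and a ratio within a library does not depend on its scaling.

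Ccl8, a ligand of Ccr8 in the mouse, had 12.7, 5.99, 11.2 and 5.08 TPM in the dexamethasone libraries, against 91.7, 39.9, 54.1 and 31.0 TPM in the controls. The groups did not overlap. The log2 change was -2.47 (SE 0.34, 95% interval -3.23 to -1.71, limma, adjusted p = 0.00182), 5.54-fold lower on the log2(TPM + 1) scale, and -2.80 relative to the median gene. Ccl11, the eosinophil chemoattractant, had 16.8, 22.1, 20.2 and 21.9 TPM after dexamethasone, against 38.8, 29.0, 39.9 and 36.1 TPM in the controls. These groups were apart as well, at a smaller distance, with a log2 change of -0.80 (SE 0.13, limma, adjusted p = 0.00335) or -1.13 relative to the median gene.

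Ccl2, the main monocyte chemoattractant, went against its cluster neighbours Ccl11 and Ccl8. It had 7.33, 12.4, 19.1 and 7.71 TPM in the dexamethasone libraries, against 5.57, 3.03, 2.63 and 1.69 TPM in the controls. No dexamethasone library was as low as the highest control, and the log2 change was 1.56 (SE 0.32, 95% interval 0.85 to 2.27, limma, adjusted p = 0.00705), or 1.23 relative to the median gene. After median-of-ratios scaling Ccl2 was still called (limma, adjusted p = 0.0391). The ratio of Ccl2 to Ccl8 in TPM was 0.576, 2.07, 1.71 and 1.52 in the dexamethasone libraries, against 0.0608, 0.0758, 0.0485 and 0.0545 in the controls. These ratios could not overlap, since every dexamethasone library was above every control for Ccl2 and below every control for Ccl8.

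Ccl7, the nearest neighbour of Ccl2 at 8.26 kb, had 3.498, 7.24, 11.2 and 5.05 TPM in the dexamethasone libraries, against 5.01, 2.22, 3.16 and 2.20 TPM in the controls. Dexamethasone 1 lay within the control range, and the other 3 lay above it. Its log2 change of 0.85 (SE 0.30, limma, adjusted p = 0.0473) was 0.52 relative to the median gene. After median-of-ratios scaling it was not called (limma, adjusted p = 0.275), and among 16 alternatives it was called in 5.

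**Figure D2:**
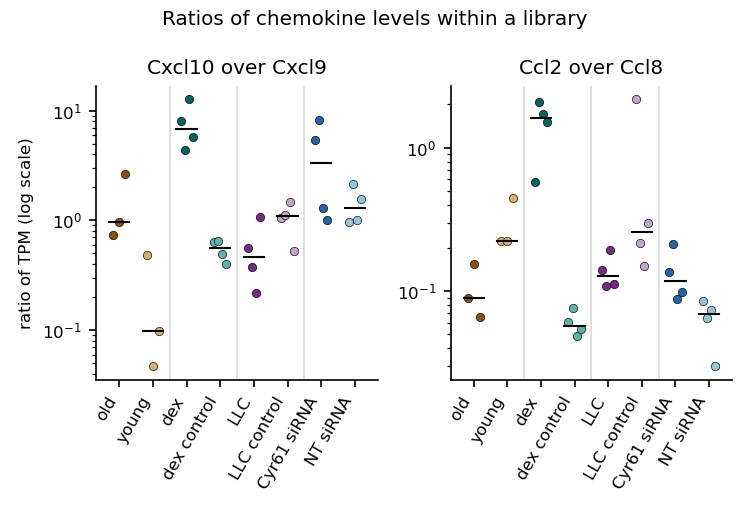
Ratio of TPM within each library for Cxcl10 over Cxcl9 and for Ccl2 over Ccl8, on a log scale, in the 8 groups; points are libraries and bars group medians. For Cxcl10 over Cxcl9 the dexamethasone libraries stand at 4.38 and above, all above their controls at 0.655 and below. For Ccl2 over Ccl8 they stand at 0.576 and above, all above their controls at 0.0758 and below. Libraries of other experiments also reach such ratios. Cyr61 siRNAs 1 and 2 stand at 5.34 and 8.22 for Cxcl10 over Cxcl9, and LLC control 1 at 2.17 for Ccl2 over Ccl8.

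The stromal and membrane-bound chemokines differed less. Cxcl12 had 19.1, 29.7, 28.0 and 29.6 TPM after dexamethasone, against 20.2, 19.3, 26.1 and 25.6 TPM in the controls, with a log2 change of 0.21 (limma, adjusted p = 0.291) that was -0.15 after median-of-ratios scaling. Cxcl14 had 40.7, 45.6, 67.0 and 48.7 TPM, against 44.9, 28.8, 37.5 and 38.3 TPM in the controls, with a log2 change of 0.42 (95% interval 0.04 to 0.79, limma, adjusted p = 0.0726). Cx3cl1 had 2.23, 3.78, 4.42 and 3.54 TPM, against 2.34, 3.03, 2.18 and 2.15 TPM in the controls, with a log2 change of 0.37 (limma, adjusted p = 0.0903). All 3 changes were close to the median of all genes. Without dexamethasone 1, which was the lowest dexamethasone library for each of the 3, all 3 were called. Their log2 changes were then 0.35 for Cxcl12, 0.51 for Cxcl14 and 0.52 for Cx3cl1 (limma, adjusted p = 0.0291, 0.0261 and 0.00547). The share of all genes called in that fit is not given here, so these calls cannot be set against it.

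In all, 5 of the 9 genes were called after dexamethasone, 3 lower and 2 higher, and 4 after scaling. Calls over all genes were 1.51% lower and 35.9% higher, and 4.71% and 4.44% after scaling. For 4 of the 9, Cxcl9, Ccl8, Ccl2 and Ccl11, the groups did not overlap. The same held for 36% of all genes tested, so this count alone does not set the chemokines apart. Cxcl9, Ccl8, Ccl2 and Ccl11 were called in each of 16 alternatives, with adjusted p values by limma of at most 0.00467, 0.00676, 0.0391 and 0.014.

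**Figure D3:**
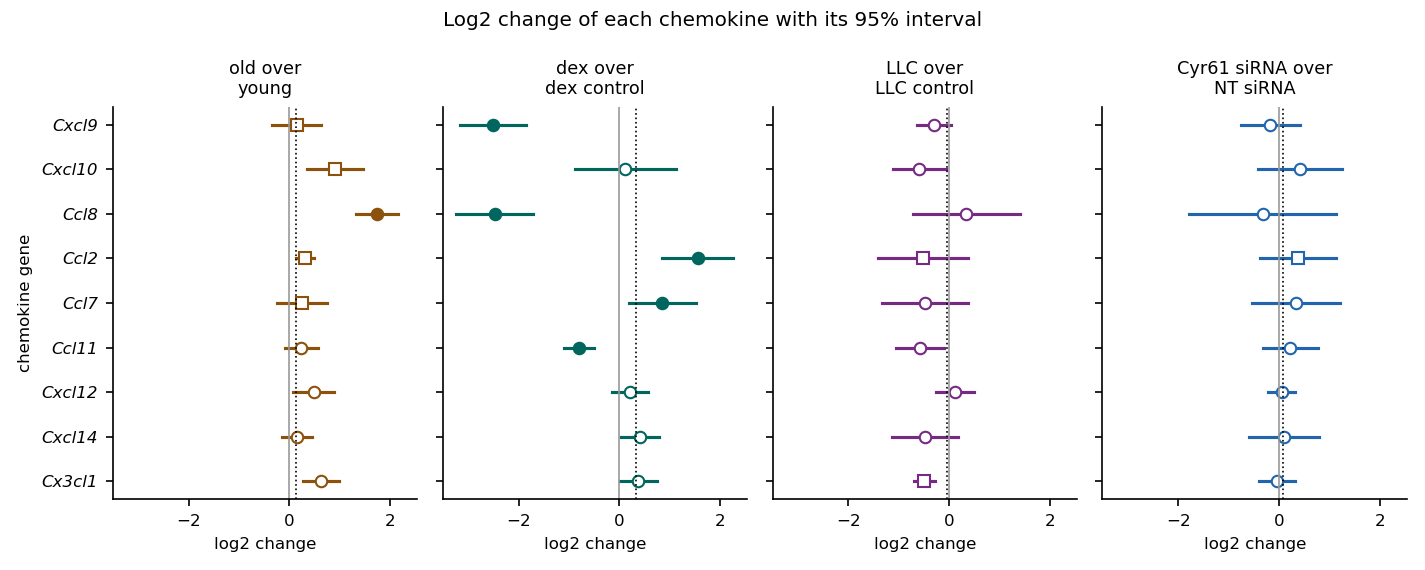
Log2 change of each chemokine on log2(TPM + 1), with its 95% interval, in the 4 comparisons; filled circles were called at an adjusted p under 0.05, open circles were not, squares are genes under the filter on low values (from the fit without it), and dotted lines mark the median of all genes tested. After dexamethasone the intervals of Cxcl9, Ccl8 and Ccl11 lie below 0 and those of Ccl2 and Ccl7 above it, and none of the circles for LLC or Cyr61 siRNAs is filled.

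Receptors of these chemokines did not move as 1 group after dexamethasone. Of 9 receptors listed, 6 were tested, of which 3 passed as higher and 1 as lower, and the lower one alone was called after scaling. That one was Ccr2, the monocyte receptor of Ccl2 and Ccl7, with 2.86 ± 0.90 TPM after dexamethasone and 5.42 ± 0.914 TPM in the control (SD, n = 4 each), a log2 change of -0.75 (limma, adjusted p = 0.0121). Ccr2 and its ligand Ccl2 therefore passed the test in opposite directions. Ccr1, another receptor of CC chemokines, had 2.58 ± 1.37 TPM against 0.964 ± 0.499 TPM in the control (limma, adjusted p = 0.0347, 0.211 after scaling and 0.0733 without a filter). Cxcr4, the receptor of Cxcl12, had 14.6 ± 3.81 TPM against 8.01 ± 1.17 TPM (limma, adjusted p = 0.01, and 0.16 after scaling). Cx3cr1 had 2.49 ± 1.23 TPM against 1.01 ± 0.153 TPM (limma, adjusted p = 0.0219, and 0.111 after scaling). Ackr3, the scavenging receptor of Cxcl12, had 8.92 ± 2.24 TPM against 8.80 ± 1.00 TPM (limma, adjusted p = 0.969).

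Ccr3, the eosinophil receptor of Ccl11, was under the filter on low values, with 0.0571 ± 0.064 TPM after dexamethasone and 1.57 ± 0.871 TPM in the control. Cxcr3 was at 0.439 ± 0.237 TPM and 0.588 ± 0.14 TPM, and Ccr8 was listed at 0 in the dexamethasone libraries and had 0.0163 ± 0.0188 TPM in the control. Of 4 atypical receptors, which bind chemokines without the usual signal, 2 were tested: Ackr1 fell to 2.64 ± 0.426 TPM after dexamethasone, against 3.74 ± 0.36 TPM in the control (limma, adjusted p = 0.0331, and 0.0608 without a filter), and Ccrl2 had 8.88 ± 2.67 TPM against 6.58 ± 0.808 TPM (limma, adjusted p = 0.137).

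Other chemokine ligands also went both ways. Of 28 listed, 12 were tested, of which 4 passed as higher and 1 as lower, against 2 and 1 with scaling. Pf4, a ligand released by platelets and made by macrophages, had 41.1 ± 12.4 TPM after dexamethasone and 10.1 ± 2.57 TPM in the control (limma, adjusted p = 0.000812). Ccl3 had 3.502 ± 1.96 TPM against 0.417 ± 0.195 TPM (limma, adjusted p = 0.00576), and Cxcl16 8.91 ± 2.69 TPM against 4.72 ± 1.01 TPM (limma, adjusted p = 0.015, and 0.212 after scaling). Ccl5, a T-cell product, fell to 0.619 ± 0.13 TPM after dexamethasone, against 3.45 ± 1.44 TPM in the control (limma, adjusted p = 0.0023). Ccl3 passed the filter through the dexamethasone libraries alone and Ccl5 through the controls alone, and without a filter their adjusted p values by limma were 0.0162 and 0.00696. Of 10 listed genes of interferon-gamma signalling, all were tested, 1 was higher by the test and 2 were lower, with 0 higher and 6 lower after scaling, and with a median log2 change of -0.66 relative to all genes. Socs1, a feedback inhibitor of that pathway, had 1.55 ± 0.262 TPM after dexamethasone and 4.79 ± 2.43 TPM in the control (limma, adjusted p = 0.00767), and Irf1, one of its transcription factors, 6.46 ± 0.888 TPM against 12.8 ± 6.11 TPM (limma, adjusted p = 0.0318, and 0.0651 without a filter). Of 13 genes of NF-kB signalling, 8 were higher by the test and 0 lower, with 2 higher after scaling, and Nfkb2 had 19.2 ± 2.08 TPM against 9.85 ± 0.732 TPM (limma, adjusted p = 0.0012).

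Markers of other cells moved with these chemokines, and their part in the results was not tested. Of 12 macrophage markers listed, 11 were tested and all 11 were called higher after dexamethasone, 6 of them after scaling. Lyz2 rose to 1255 ± 562 TPM after dexamethasone, against 239 ± 63.2 TPM in the control (limma, adjusted p = 0.00116), and Cd163 to 4.60 ± 0.707 TPM, against 1.20 ± 0.265 TPM (limma, adjusted p = 0.000524). The summed level of the list was 1133 to 2730 TPM after dexamethasone and 328 to 562 TPM in the control, with none at 0. The 6 monocyte markers summed to 26.7 to 55.4 TPM and 15.2 to 39.5 TPM, with none at 0, and 1 was called higher and 2 lower. The 10 T and NK cell markers summed to 0.971 to 1.98 TPM and 5.27 to 11.7 TPM, with Cd8b1 at 0 in all dexamethasone libraries, and Gzma, the only one tested, fell to 0.446 ± 0.314 TPM after dexamethasone, against 2.87 ± 1.45 TPM in the control (limma, adjusted p = 0.00442). The 6 eosinophil markers summed to 1.55 to 4.24 TPM and 14.2 to 36.2 TPM, with Epx at 0 in both groups, and Ear2 fell to 2.38 ± 1.17 TPM after dexamethasone, against 19.7 ± 7.94 TPM in the control (limma, adjusted p = 0.000849). The 7 neutrophil markers summed to 17.1 to 94.6 TPM and 9.01 to 37.8 TPM, with Ly6g at 0 in both groups. Among these S100a8 had 42.3 ± 36.1 TPM after dexamethasone and 2.47 ± 1.59 TPM in the control (limma, adjusted p = 0.00769), whereas Retnlg fell to 0.607 ± 0.14 TPM after dexamethasone, against 15.1 ± 10.3 TPM in the control (limma, adjusted p = 0.00121). Gzma and Retnlg passed the filter through the controls alone, and without a filter their adjusted p values by limma were 0.012 and 0.00494. The 10 markers of fibroadipogenic progenitors, a stromal cell of muscle, summed to 1403 to 1960 TPM and 1071 to 1480 TPM, and 3 were called higher, 0 after scaling.

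Among old mice, Ccl8 was the chemokine with the largest difference, at low read numbers. It had 3.23, 3.495 and 5.32 TPM in the 3 old libraries, from 25, 32 and 41 reads, against 0.739, 0.633 and 0.111 TPM in the 3 young libraries, from 6, 6 and 1 reads. The groups did not overlap, and the log2 change was 1.75 (SE 0.20, limma, adjusted p = 0.00128), or 1.61 relative to the median gene. Ccl8 passed the filter on low values through the old libraries alone, so it was bound to differ among the genes tested. It was 1 of the 5 genes tested, among 10511 genes of which 0.152% were called higher. The call was lost after median-of-ratios scaling (limma, adjusted p = 0.0594), without a filter (adjusted p = 0.322), with all 8 groups in 1 fit (adjusted p = 0.363), after rescaling without mitochondrially encoded genes (adjusted p = 0.0528) and without young 3 (adjusted p = 0.0528), while the log2 change stayed between 1.55 and 2.18 in these 5 fits.

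Of the less abundant chemokines, Cx3cl1, Cxcl10 and Ccl2 had higher values in every old library than in any young one without passing the test. Cx3cl1 had 1.16, 1.38 and 2.20 TPM in old mice, against 0.730, 0.567 and 0.645 TPM in young mice, with no overlap and a log2 change of 0.63 (95% interval 0.28 to 0.98, limma, adjusted p = 0.162). It passed the filter through old libraries alone. Cxcl10, Ccl2, Cxcl9 and Ccl7 were under the filter. Cxcl10 had 0.452, 1.67 and 1.53 TPM in old mice, against 0.352, 0.0335 and 0.0709 TPM in young mice, and without the filter its adjusted p by limma was 0.463. Where leaving out old 1, young 1 or young 2 brought it over the filter, it was called (limma, adjusted p = 0.00142, 0.00149 and 0.0113), and where leaving out young 3 did so it was not (adjusted p = 0.734). In these fits Cxcl10 passed the filter through old libraries alone, so it was bound to differ among the genes tested. Ccl2 had 0.290, 0.539 and 0.350 TPM in old mice, against 0.166, 0.142 and 0.0501 TPM in young mice, and its adjusted p without the filter was 0.414. Cxcl9 had 0.613, 1.72 and 0.572 TPM in old mice, against 0.731, 0.715 and 0.718 TPM in young mice (limma, no filter, adjusted p = 0.772). Old 2 alone was above the young libraries, and old 1 and old 3 were below them. Ccl7 had 0.907, 0.488 and 0 TPM in old mice, against 0.157, 0.269 and 0.142 TPM in young mice (limma, no filter, adjusted p = 0.652), with old 3 below the young libraries and the other 2 above them.

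The abundant chemokines overlapped between the ages. Ccl11 had 16.0 ± 1.87 TPM in old mice and 13.6 ± 2.54 TPM in young mice, Cxcl14 27.7 ± 3.56 TPM and 24.7 ± 2.19 TPM, and Cxcl12 23.0 ± 8.26 TPM and 15.6 ± 1.56 TPM (SD, n = 3 each; limma, adjusted p = 0.572, 0.661 and 0.392). The higher mean of Cxcl12 came mainly from old 3, at 32.4 TPM. The groups of 4 of the 9 genes did not overlap, Cxcl10, Ccl8, Ccl2 and Cx3cl1, all higher in old mice. Of these, Ccl8 and Cx3cl1 were among the 5 tested, and both passed the filter through old libraries alone. Over all genes tested, 16.2% had groups that did not overlap, a share that leaves out Cxcl10 and Ccl2. Of the 110 receptors, other ligands, pathway genes and cell markers tested, 0 were called between the ages by limma and 29 had an unadjusted p under 0.05. Among all 10511 genes tested, 1174 had an unadjusted p under 0.05. The macrophage markers summed to 61.4 to 98.8 TPM in old mice and 34.8 to 61.3 TPM in young mice, and the T and NK cell markers to 0.498 to 1.54 TPM and 0.289 to 0.613 TPM. Their part in the differences was not tested.

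With LLC cancer no chemokine was called. Of the 9 genes 7 were tested, among 10830 genes of which 1.18% were called, and 2 of the 7 had an unadjusted p under 0.05, Cxcl10 and Ccl11. Among all 10830 genes, 1429 had an unadjusted p under 0.05 by limma. Ccl2 and Cx3cl1 were under the filter. Cx3cl1, the membrane-bound chemokine, had 0.662, 0.496, 0.486 and 0.387 TPM in the LLC libraries, against 1.36, 1.27, 0.869 and 1.01 TPM in the controls. These groups did not overlap. The share of such genes among all genes tested was 7.63%, a set that leaves out Cx3cl1. Its log2 change without the filter was -0.49 (95% interval -0.70 to -0.28, limma, adjusted p = 0.0993). After rescaling without mitochondrially encoded genes, an alternative chosen after the data were seen, Cx3cl1 passed the filter and was called (log2 change -0.59, limma, adjusted p = 0.0367). The share of mitochondrially encoded genes was 50.9% ± 6.46 with LLC and 45.9% ± 3.01 in the control.

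Ccl8 varied widely between LLC libraries, with 2.67, 9.48, 0.514 and 7.06 TPM, against 1.86, 4.69, 2.31 and 2.39 TPM in the controls (log2 change 0.34, 95% interval -0.73 to 1.41, limma, adjusted p = 0.847). Cxcl10 had 0.194, 0.279, 0.140 and 1.33 TPM with LLC, against 1.15, 1.73, 1.49 and 0.430 TPM in the controls (log2 change -0.59, limma, adjusted p = 0.315). LLC 4 lay within the control range, and the other 3 LLC libraries lay below it. Ccl11 had 11.7 ± 3.89 TPM with LLC and 17.4 ± 3.32 TPM in the control (limma, adjusted p = 0.26), and Cxcl14 24.7 ± 15.2 TPM and 31.4 ± 6.05 TPM (limma, adjusted p = 0.557). Cxcl9 had 0.741 ± 0.37 TPM and 1.11 ± 0.301 TPM, and Cxcl12 17.8 ± 5.09 TPM and 15.9 ± 1.16 TPM (limma, adjusted p = 0.461 and 0.856). Ccl2 and Ccl7 were highest in LLC control 1, at 4.02 and 3.76 TPM, and averaged 0.573 ± 0.414 TPM and 0.879 ± 0.839 TPM with LLC, against 1.52 ± 1.69 TPM and 1.71 ± 1.48 TPM in the control. Their adjusted p values by limma were 0.716, without the filter, for Ccl2 and 0.674 for Ccl7.

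Of the 119 receptors, other ligands, pathway genes and cell markers tested, 2 were called with LLC, and 10 after scaling. The share over all genes was 1.18% before scaling. The share after scaling is not given here, so the 10 cannot be set against it. Csf3r, a receptor of neutrophils, rose to 1.96 ± 0.85 TPM with LLC, against 0.505 ± 0.205 TPM in the control, and Tnfaip3, an inhibitor of NF-kB signalling, fell to 0.782 ± 0.126 TPM with LLC, against 1.55 ± 0.239 TPM in the control (limma, adjusted p = 0.0354 and 0.039). Each passed the filter through 1 group alone, Csf3r through LLC and Tnfaip3 through the control, and without a filter neither was called (limma, adjusted p = 0.124 and 0.0944). The neutrophil markers summed to 35.5 to 101 TPM with LLC and 1.85 to 101 TPM in the control, and the red cell markers to 717 to 7806 TPM and 622 to 792 TPM. Their part in the chemokine values was not tested.

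Cyr61 siRNAs gave no call for any chemokine, of the 8 tested, in a comparison in which 0% of 11006 genes were called by limma and 109 had an unadjusted p under 0.05. Ccl8 was the most variable, with 4.58, 3.68, 36.9 and 17.2 TPM with Cyr61 siRNAs, against 6.35, 11.6, 23.4 and 18.8 TPM with NT siRNAs. Cxcl10 had 2.58, 6.10, 2.00 and 1.81 TPM with Cyr61 siRNAs, against 0.525, 2.89, 1.65 and 3.30 TPM with NT siRNAs. The groups overlapped for both, and the 95% interval of the log2 change was -1.79 to 1.14 for Ccl8 and -0.42 to 1.25 for Cxcl10. For Cxcl12, the least variable, it was -0.22 to 0.32, with 17.5 ± 1.86 TPM with Cyr61 siRNAs and 16.9 ± 2.35 TPM with NT siRNAs (SD, n = 4 each). All 9 adjusted p values were at least 0.999 by limma, with Ccl2 under the filter, and 0 of the 8 tested had an unadjusted p under 0.05. T and NK cell markers summed to 2.22 to 20.4 TPM with Cyr61 siRNAs and 1.56 to 47.4 TPM with NT siRNAs.

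The responses of the genes to the treatments were then compared with each other in 1 fit of 22 libraries, in which the difference between 2 log2 changes is tested across 12392 genes. The experiments share no control libraries. Between LLC and dexamethasone 27.6% of all genes differed, with a median of -0.37, and 4 of the 9 chemokines did. The change of Cxcl9 was 2.21 higher with LLC than with dexamethasone (log2, SE 0.35, limma, adjusted p = 0.00043), and that of Ccl8 2.81 higher (SE 0.62, adjusted p = 0.0046). For Ccl2 the difference was -2.08 (SE 0.46, limma, adjusted p = 0.00512) and for Cx3cl1 -0.87 (SE 0.20, adjusted p = 0.00657). All 4 were called after scaling too (limma, adjusted p = 0.00106 for Cxcl9, 0.00626 for Ccl8, 0.0298 for Ccl2 and 0.0409 for Cx3cl1).

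Between old age and dexamethasone 2.06% of all genes differed, with a median of -0.18, and of the 9 chemokines Cxcl9 and Ccl8 did. The change of Cxcl9 was 2.65 higher with age than with dexamethasone (log2, SE 0.37, limma, adjusted p = 0.00024) and that of Ccl8 4.22 higher (SE 0.66, adjusted p = 0.000831). Ccl11 differed by 1.04 (limma, adjusted p = 0.0561) and was called after scaling, at 1.25 (adjusted p = 0.00506). Between old age and LLC 0.0484% of all genes differed, with a median of 0.19, and none of the 9 chemokines did by limma. An unadjusted p under 0.05 was found for 4 of the 9, and the number over all genes is not given here. Cx3cl1 came nearest, with a change 1.12 higher with age than with LLC (SE 0.22, limma, adjusted p = 0.0557, and 0.0103 after scaling).

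Within groups, some chemokines varied together from mouse to mouse. Deviations from the group mean on log2(TPM + 1) were correlated for all 36 pairs over the 30 libraries, with p values from 100000 permutations within groups, where 1e-05 is the smallest possible, adjusted over the 36 pairs. The neighbours Ccl2 and Ccl7 gave Pearson's r = 0.88 (permutation p = 2e-05, adjusted p = 0.00072) and Spearman's rho = 0.87 (permutation p = 1e-05, adjusted p = 0.00036). Ccl11 and Cxcl14, on different chromosomes, gave r = 0.78 (permutation p = 0.00011, adjusted p = 0.00198) and rho = 0.71 (permutation p = 0.00025, adjusted p = 0.0045). Both held after the 2 libraries farthest from the median were left out, with r = 0.86 and 0.69 (permutation, adjusted p = 0.00036 and 0.0256). In all, 9 of the 36 pairs had an adjusted p under 0.05, each with r above 0, and 6 after scaling. The other 7 had r between 0.41 and 0.58 without the 2 libraries, and their adjusted p was then over 0.05, so that these calls, though not the sign of r, depend on the 2 libraries.

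Cxcl9 and Cxcl10 gave r = 0.60 (permutation p = 0.00811, adjusted p = 0.0424) and rho = 0.50 (permutation p = 0.0205, adjusted p = 0.0924), and r = 0.41 without the 2 libraries (permutation, adjusted p = 0.2). Cxcl9 and Ccl8 gave r = 0.60 (permutation p = 0.00266, adjusted p = 0.0303) and rho = 0.67 (permutation p = 0.00138, adjusted p = 0.0166), and r = 0.58 without the 2 libraries (permutation, adjusted p = 0.143). Of the 36 pairs 32 had r above 0, and 28 after scaling. The 2 genes of a pair share the scaling of each library and the make-up of its muscle. The part of these in the correlations was not tested.

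**Figure D4:**
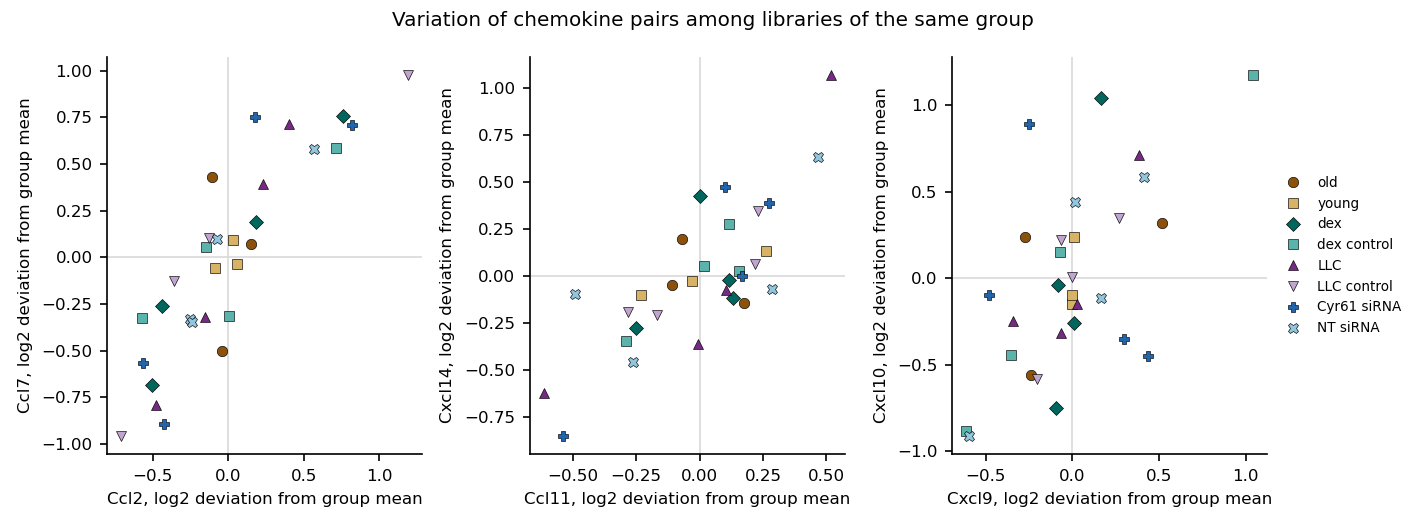
Deviation of each library from its group mean, in log2(TPM + 1), for Ccl2 and Ccl7, Ccl11 and Cxcl14, and Cxcl9 and Cxcl10; points are the 30 libraries, marked by group. The points lie along a rising line for Ccl2 and Ccl7 (r = 0.88) and for Ccl11 and Cxcl14 (r = 0.78), and scatter more for Cxcl9 and Cxcl10 (r = 0.60).

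Genes whose pattern was most like that of a chemokine were sought among 10375 genes, by Pearson's r over the 30 libraries on log2(TPM + 1) minus the mean of the control group of each experiment. Libraries of a group share a treatment, and genes of a library share its scaling, so r is a description. The 3 nearest to Cxcl9 were Iigp1 (r = 0.96), Gbp2 (r = 0.95) and Tgtp1 (r = 0.92), all known as interferon-induced GTPases. Nearest to Ccl8 were Plac8 (r = 0.90), H2-K1 (r = 0.88), a class I histocompatibility gene, and Psmb8 (r = 0.87), a subunit of the immunoproteasome. Nearest to Ccl2 were Sh3bp2 (r = 0.91), Slc11a1 (r = 0.90) and Rgs19 (r = 0.90), and to Ccl7 Slc30a6 (r = 0.86), Sh3bp2 (r = 0.86) and Nrros (r = 0.85). Ccl11 was most like Itih5 (r = 0.84), Cxcl12 most like Pcdh1 (r = 0.91), Cxcl14 most like Aldh1a2 (r = 0.83) and Cx3cl1 most like Psmc3ip (r = 0.86). Cxcl10 had no gene as near: its highest r was 0.65, for Ces2c.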

How the data were processed

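RNA of 30 tibialis anterior muscles was sequenced after TruSeq stranded mRNA library preparation on a NovaSeq instrument, per the labels' protocols. The authors deposited 1 table of TPM, with a column for each library, and the build was mm10, per the submitters' processing notes. No label or header names an aligner, a counting tool, a strand setting or a filter. Every column summed to 1000000, so TPM are shares of a library and a change in a few abundant genes moves all others. Whole reads were recovered from the TPM with GENCODE M21 exon lengths (tolerance 0.05 read); for Cxcl10, Cxcl14 and Cx3cl1 the shortest length that gave whole values was used, so their reads may be low by a whole factor.

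The labels put the libraries into 8 groups. Tests used log2(TPM + 1), a pseudocount of 1, and a gene was tested when its TPM reached 1 in a number of libraries equal to the size of the smaller group. Each pair of groups was fitted in R 4.3.3 with limma 3.58.1 (trended variance), two-sided, with Benjamini-Hochberg adjustment over all genes tested, and genes were called at an adjusted p under 0.05. The script was tested on simulated data. Fold changes on this scale understate those of low genes. Responses were compared by contrasts in 1 fit of 22 libraries. Within-group correlations used 100000 permutations (two-sided, numpy 2.4.6), the 2 libraries left out being those farthest from the median of the first gene of a pair. In the order of group means, neighbours were called apart where their intervals of mean plus or minus SD did not overlap.

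The 9 chemokines and the gene lists were chosen with earlier results of these data known. Named beside the chemokines were receptors with a group mean of at least 1 TPM, up to 4 called genes per list and comparison with the largest change and a mean of at least 1 TPM, the genes Fkbp5 and Cyr61 as checks of the labels, and the 3 genes most like each chemokine; Cxcr3, Ccr8 and Ccrl2 were named as receptors after their values were seen. A further receptor that met this rule is not reported here. The alternatives tried were other pseudocounts (0.1 and 0.5), no filter, a filter at 5 TPM, median-of-ratios scaling, all 8 groups in 1 fit, a replicate block, a threshold of 0.01 and leaving out each library. Rescaling without mitochondrially encoded genes was added after the data were seen.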

Additional observations from a re-analysis of the deposited data

Results flagged for a closer look

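Among 54 sets of values, 9 chemokines in the 6 groups of 4 libraries, 2 held a library far from the rest, where chance flags about 5% of such sets. Cxcl10 was 1.33 TPM in LLC 4, against 0.140 to 0.279 TPM in the other 3 LLC libraries. Cxcl12 was 19.1 TPM in dexamethasone 1, against 28.0 to 29.7 TPM in the other 3 dexamethasone libraries.

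The response of some chemokines differed between treatments by a test of the difference itself (limma, 1 fit of 22 libraries). Between LLC and dexamethasone the difference of log2 changes was 2.21 for Cxcl9, 2.81 for Ccl8, -2.08 for Ccl2 and -0.87 for Cx3cl1. Between old age and dexamethasone it was 2.65 for Cxcl9 and 4.22 for Ccl8. Treatment, age and experiment cannot be told apart in these differences.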

How the results depend on the processing

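The calls after dexamethasone of Cxcl9, Ccl8, Ccl11 and Ccl2 held in all 16 alternatives run. The number of chemokines called was 5 after dexamethasone, and it was 4 to 8 when each library was left out in turn, with 8 without dexamethasone 1. Between old and young mice 1 was called, and it was 0 without a filter, with a filter at 5 TPM, after median-of-ratios scaling, with all 8 groups in 1 fit and after rescaling without mitochondrially encoded genes, and 0 to 3 when each library was left out (3 without old 1, 2 without young 1 or young 2, 0 without young 3). With LLC it was 0, and 1 after rescaling without mitochondrially encoded genes. Of responses that differed, 4 were called between LLC and dexamethasone, and 4 to 6 when each library was left out (6 without dexamethasone 1 or LLC 2); between old age and LLC 0 were called, and 1 with a pseudocount of 0.1 or 0.5 and after scaling, and 0 to 1 when each library was left out. Pairs that varied together numbered 9, and 2 without the 2 libraries farthest from the median. The cause of these changes was not tested, and the shares of all genes called in the fits that left out a library are not given here.

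Whether the replicate numbers pair the mice is not given in the labels and was not settled by the data, so the numbers were not used as pairs. The correlation of the deviations of same-numbered libraries was above 0 for every number but not above 0.1 for every number in any of the comparisons: 0.044 to 0.135 for old and young, 0.027 to 0.498 for dexamethasone, 0.041 to 0.374 for LLC and 0.094 to 0.498 for siRNAs. Of the libraries, 5 of 6, 3 of 8, 4 of 8 and 5 of 8 in these comparisons correlated best with their own number. With a replicate block 6 chemokines were called after dexamethasone, with Cxcl14 added (limma, adjusted p = 0.0471), 1 in old mice and 0 in the other 2 comparisons.

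Changes of sign touched genes that were not called. After dexamethasone Cxcl10 was -0.18 after scaling, -0.11 after rescaling without mitochondrially encoded genes, and between -0.23 and 0.51 when each library was left out, and Cxcl12 was -0.15 after scaling and -0.061 after that rescaling. With Cyr61 siRNAs Cxcl12 was -0.033 after scaling and -0.011 after rescaling. Between LLC and dexamethasone Cxcl12 was 0.32 after scaling. Leave-one-out log2 values that changed sign were, with LLC, Ccl8 -0.049 to 0.88 and Cxcl12 -0.0013 to 0.24; with Cyr61 siRNAs, Ccl8 -0.90 to 0.11, Cxcl12 -0.0061 to 0.14, Cxcl14 -0.065 to 0.38 and Cx3cl1 -0.16 to 0.060; and, between LLC and dexamethasone, Cxcl12 -0.23 to 0.034. Of the other alternatives for single genes, 1054 kept direction and side of the threshold, 25 gained a call and 16 lost one. Reads limit Ccl2, Ccl7, Ccl8 and Cxcl10 in old and young mice.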

Other observations

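Other gene lists also moved after dexamethasone, on the background of more genes called higher than lower. The shares over all genes tested were 35.9% higher and 1.51% lower, against 4.44% and 4.71% with scaling. Of 7 proteases that cut chemokines, all were tested, 3 were higher by the test and 1 of them with scaling. This was Mmp9, a gelatinase, with 4.70 ± 1.47 TPM after dexamethasone and 1.02 ± 0.373 TPM in the control (limma, adjusted p = 0.00121). Of 9 genes of type 2 cytokine signalling, 8 were tested, with 3 higher and 1 lower by the test, and 0 and 1 with scaling. The lower gene was Retnla, a product of alternatively activated macrophages, with 2.35 ± 1.41 TPM after dexamethasone and 166 ± 67.6 TPM in the control (SD, n = 4 each; limma, log2 change -5.66, adjusted p = 1.96e-05), a larger change than that of any of the 9 chemokines. Of 9 glucocorticoid-induced genes, all were tested and Fkbp5 alone was called.

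Among stromal and other cells, 4 of 5 adipocyte markers tested were higher after dexamethasone by the test, 2 with scaling, and Cidec, a lipid droplet protein, had 4.73 ± 1.33 TPM after dexamethasone and 1.28 ± 0.514 TPM in the control (limma, adjusted p = 0.00236). Of 8 smooth muscle and pericyte markers 6 were higher, 0 with scaling. Of 10 endothelial markers 1 was lower, and 6 were lower with scaling. Of 6 Schwann cell markers 1 was higher, 0 with scaling.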
